A study of Homo sapiens with 4 samples.

Results

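The HOX genes were measured in CaSki cells that carried ZNF750 or GFP. A member was every probe set whose platform annotation gave exactly 1 gene symbol made of HOX, a cluster letter and a paralog number. This rule found 44 probe sets for 28 genes among 54613 probe sets in the table: 1 for HOXA2, 19 for 10 HOXB genes, 9 for 9 HOXC genes and 15 for 8 HOXD genes. Other HOXA genes were not analysed here, and 3 probe sets that carried a HOX symbol together with another symbol were left out. Of the 44 members, 1 changed, or 2.27%, against 11.5% of all probe sets. It was a probe set of HOXD10, which fell, while the brightest probe set of the same gene did not pass.

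CaSki is a human papillomavirus-positive line from a squamous carcinoma of the cervix. The ZNF750 group was 2 arrays from cells given ZNF750, a zinc finger protein that promotes epidermal differentiation, by lentivirus. The GFP group was 2 arrays from cells given GFP by lentivirus as the control. All cells were kept in DMEM, for which the labels state 0% fetal bovine serum, and the genetic background was that of this 1 line. The design text calls the arrays biological duplicates without saying how cultures were separated, so p-values measure the spread between these arrays, which may be technical.

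HOX genes encode homeodomain transcription factors and lie in 4 clusters, HOXA to HOXD, that arose by duplication. Genes with the same number in different clusters are paralogs. Low-numbered genes act toward the head of the embryo and high-numbered genes toward the tail. Their proteins bind DNA with partners of the PBX, MEIS and PKNOX families, Polycomb and trithorax group proteins hold the clusters silent or active, and adult epithelial and mesenchymal cells keep much of the HOX pattern of their origin.

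The arrays matched the label of an epithelial line. All 5 epithelial markers with a probe set of their own (CDH1, EPCAM, KRT5, KRT14, SFN) had a brightest probe set at a mean log2 value between 11.1 and 14.5. KRT6A, KRT17 and TP63, also listed, had no probe set of their own. The leukocyte markers reached at most 5.88 and the endothelial markers at most 6.06. Of 7 fibroblast markers, 4 lay below 5, and 1 reached 7, COL1A1 at 8.36. Summed over the brightest probe sets of the fibroblast list, the log2 level was 9.06 and 8.97 in the ZNF750 arrays and 8.94 and 8.76 in the GFP arrays, and its part in the results was not tested. ZNF750 itself had 1 probe set, 219995_s_at, which read 2.23 and 2.29 in the ZNF750 arrays and 2.13 and 2.37 in the GFP arrays, so the introduced gene was not seen. Its position relative to the introduced sequence is not known, and it does not check the labels. As a sign of RNA quality, the ACTB control probe set at the 3′ end exceeded that at the 5′ end by log2 values of 3.76 and 3.35 in the ZNF750 arrays and of 3.03 and 2.81 in the GFP arrays. For GAPDH the gap was smaller, 0.85 and 0.80 in the ZNF750 arrays and 0.63 and 0.61 in the GFP arrays.

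HOX probe sets in this line ranged from the dim to the bright part of the table. The RMA log2 value, averaged over the 4 arrays, ran from 2.66 to 10.23 over the 44 probe sets. A mean of at least 7 was reached by 15 probe sets of 12 genes, 18 lay between 5 and 7, and 11 lay below 5. Probe sets bind their targets with different strength, so these values do not order the genes by amount of RNA. No detection calls were used here, so whether a dim HOX gene lay above background is not known.

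Of the 19 HOXB probe sets, 9 had a mean of at least 7 and 5 a mean below 5. The 9 belonged to HOXB2, HOXB3, HOXB5, HOXB6, HOXB7 and HOXB9. Both probe sets of HOXB13, a gene of the prostate and hindgut, lay below 5. Of the 9 HOXC probe sets, HOXC4, HOXC6 and HOXC9 reached 7, and only HOXC12 lay below 5. Of the 15 HOXD probe sets, 3 reached 7, 1 each for HOXD9, HOXD10 and HOXD11, and 5 lay below 5. HOXA2, which patterns the hindbrain and the face, had a mean of 6.86. By paralog number, members with a mean of at least 7 were found for numbers 2 to 7, 9, 10 and 11, and for none of 1, 8, 12 and 13.

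**Figure D1:**
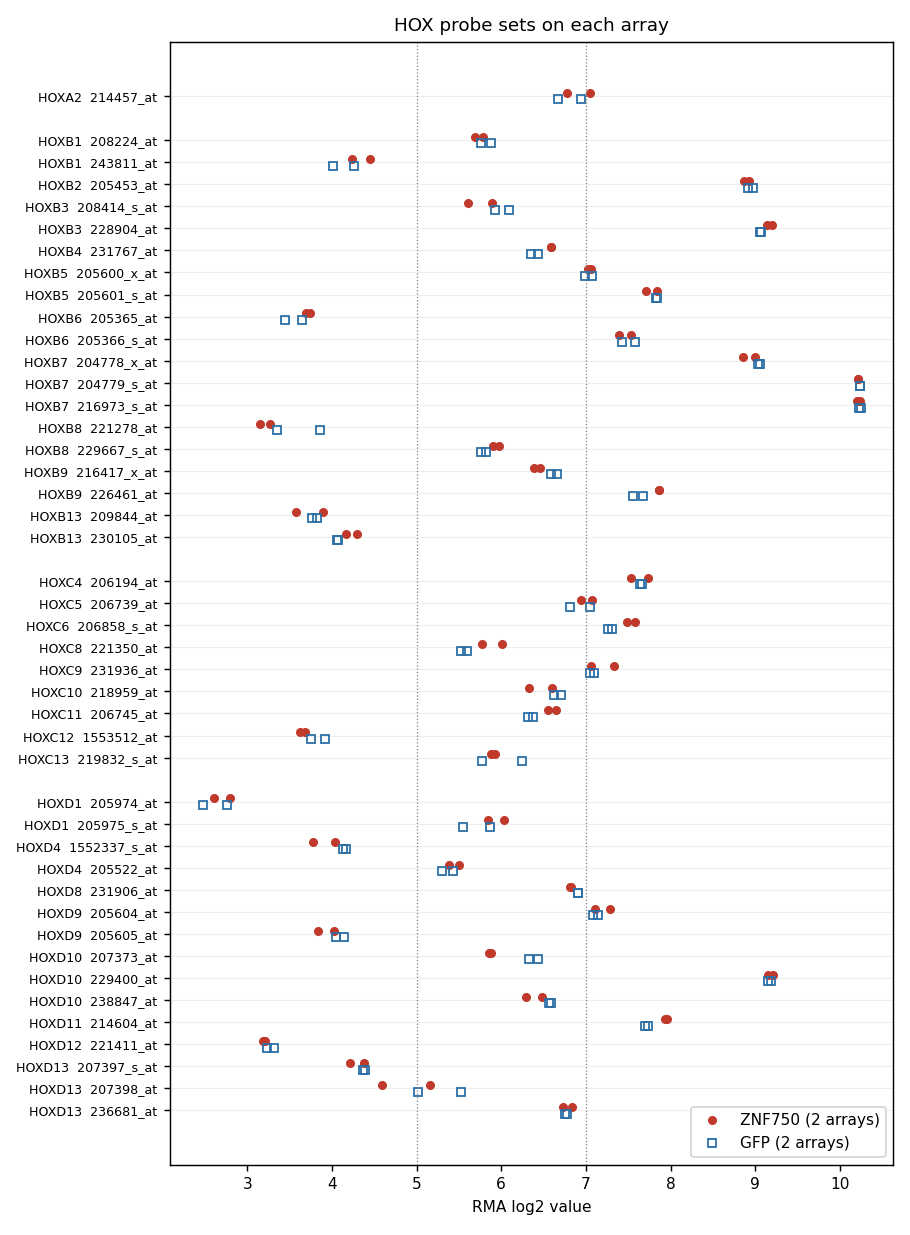
RMA log2 value (x axis) of each of the 44 HOX probe sets (y axis, by cluster and paralog number) on the 2 ZNF750 arrays (filled circles) and the 2 GFP arrays (open squares). Dotted lines mark log2 values of 5 and 7. The values of both groups lie close together in nearly every row, and the bright probe sets span means from 7.04 to 10.23.

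The comparison of ZNF750 with GFP asked which genes respond to the introduced factor. Differences were taken as ZNF750 minus GFP on the log2 scale and fitted with limma over all 54613 probe sets, and a probe set with an adjusted p under 0.05 was taken to have changed. Among all probe sets 11.5% changed, 4.3% as higher and 7.19% as lower. After centring the arrays on brighter probe sets, the lower share of all calls was 42% instead of 62.6%.

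Among the HOX probe sets, 0 rose and 1 fell, which is 2.27% of the 44. Of the 43 others, 5 had an unadjusted limma p under 0.05, all with a positive difference. With the 1 that fell they make 13.6% of the members, against 26.2% of all probe sets at that threshold (12.4% with ZNF750 higher and 13.8% with ZNF750 lower). The ZNF750 and GFP arrays did not overlap for 23 of 44 HOX probe sets (10 with ZNF750 higher, 13 with ZNF750 lower), or 52.3%, against 54.2% of all probe sets (29.9% higher and 24.3% lower). The median HOX difference was -0.016, with 21 positive and 23 negative values, and the median over all probe sets was 0.026.

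The share of calls rises with the level of a probe set, and on the values as deposited the HOX probe sets stood below the table at the bright end. Of the 15 with a mean of at least 7, 0 changed by limma (3 at an unadjusted p under 0.05), against 28.5% of all probe sets at that level. The median size of the HOX differences there was 0.061, against 0.16 for all probe sets. Between 5 and 7, 1 of 18 changed, or 5.56%, against 7.65%, and the median size was 0.19 against 0.14. Below 5, 0 of 11 changed (0 at an unadjusted p under 0.05), against 2.48%, and the sizes were 0.17 and 0.13. These shares describe the lists, and the difference between HOX and other probe sets was not tested. Cyclic loess gave 3 HOX calls (6.82%, against 12.5% of all probe sets) and centring on brighter probe sets gave 4 (9.09%, against 14.9%). The calls gained were HOXB9 226461_at and HOXD11 after either step, and HOXC6 after centring. All of these had a mean of at least 7, so the 0 of 15 depends on the normalization.

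**Figure D2:**
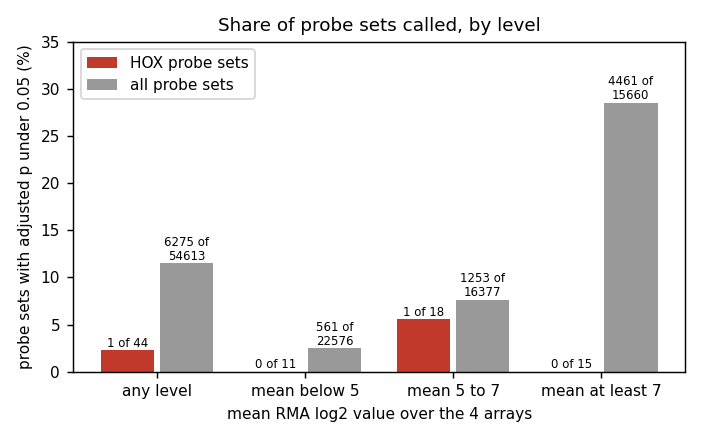
Percent of probe sets with a limma adjusted p under 0.05 (y axis), for HOX probe sets (left bars) and all probe sets (right bars), over every level and in 3 ranges of the mean log2 value (x axis). Among probe sets with a mean of at least 7, 0 of 15 HOX probe sets were called, against 4461 of 15660 in the table.

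The intervals of the differences limit how much the HOX probe sets can have moved on these arrays. The 95% confidence interval lay within a 1.5-fold change either way for 40 of 44 probe sets and within a 2-fold change for 44 of 44. For the 15 brighter ones the count within 1.5-fold was 15. RMA pulls dim signals toward background, so the fold changes of dim probe sets are understated.

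**Figure D3:**
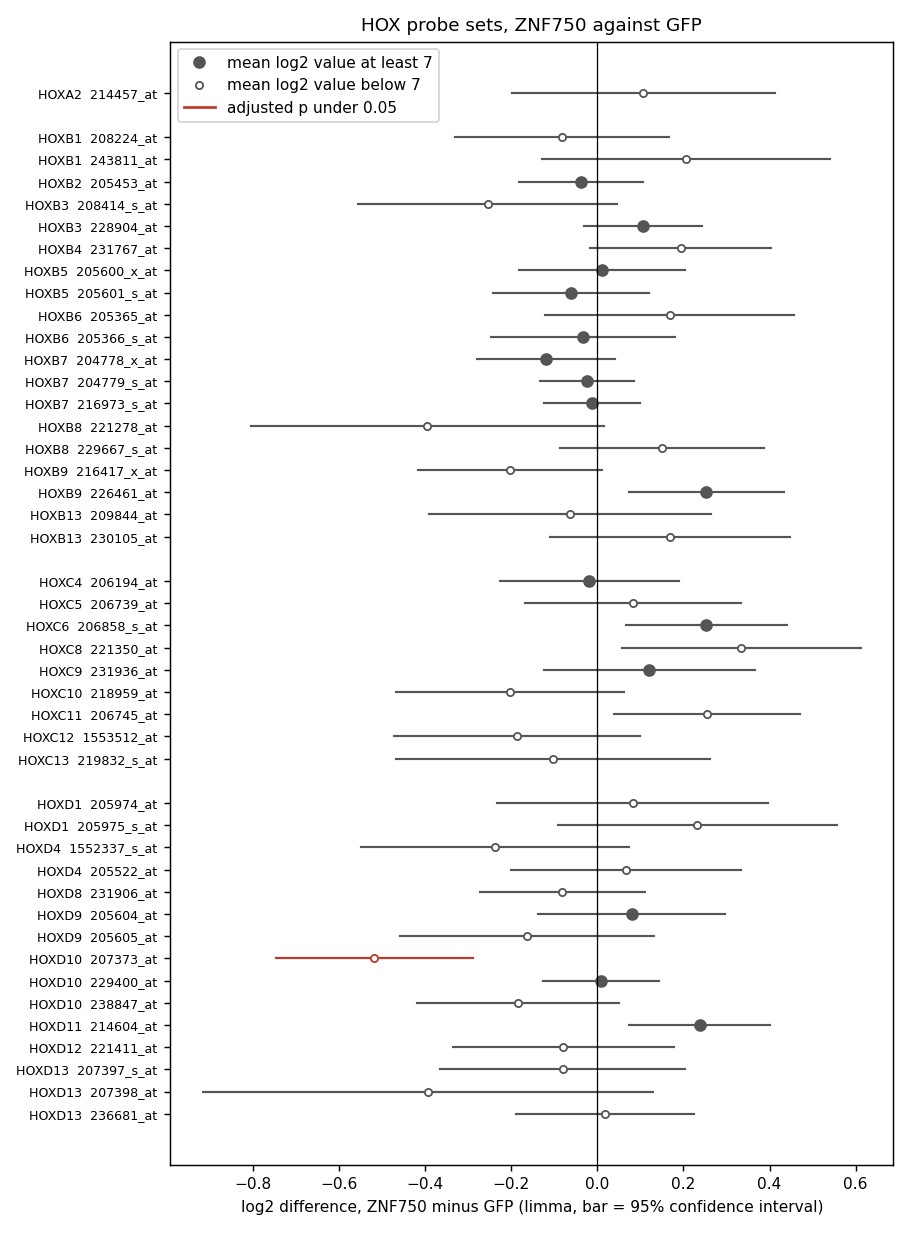
Log2 difference, ZNF750 minus GFP (x axis), with its limma 95% confidence interval for each HOX probe set (y axis, by cluster and paralog number). Large filled points have a mean log2 value of at least 7, open points a lower one, and the interval of HOXD10 207373_at, the 1 probe set called, is coloured.

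HOXD10, a gene of the lumbar spinal cord and the limb that is repressed by the microRNA miR-10b in breast cancer cells, had 3 probe sets. The probe set 207373_at read 5.88 and 5.86 in the ZNF750 arrays, against 6.33 and 6.44 in the GFP arrays. Both ZNF750 values lay below both GFP values. The difference was -0.52 ± 0.098 (limma SE, n = 2 arrays per group), or 1.43-fold lower, and passed (limma adjusted p = 0.0165).

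The other two HOXD10 probe sets did not pass. The bright 229400_at read 9.15 and 9.20 in the ZNF750 arrays, against 9.19 and 9.15 in the GFP arrays, and the groups overlapped. Its difference was 0.0081 ± 0.058, with an interval from a ratio of 0.916 to 1.10 of ZNF750 over GFP. The third, 238847_at, read 6.48 and 6.30 in the ZNF750 arrays, against 6.58 and 6.57 in the GFP arrays, a difference of -0.18 ± 0.10 (limma adjusted p = 0.299). The interval of 229400_at excludes the fall measured by 207373_at. Probe sets of 1 gene can read different parts or isoforms of its transcript, and their positions were not used here. The mean of the 3 gave -0.23 for the gene and passed (limma adjusted p = 0.0487).

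The HOXD10 call depended on every array, as did most calls in the whole table. With 1 array left out at a time the difference of 207373_at stayed between -0.57 and -0.46, and its limma adjusted p lay between 0.0974 and 0.161. It also missed without limma's intensity trend (0.0507). The ACTB and GAPDH 3′ to 5′ gaps given above, which were wider in the ZNF750 arrays, moved with the groups, and their part in this result was not tested. In bulk RNA, fewer cells of a type and less RNA per cell cannot be told apart.

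**Figure D4:**
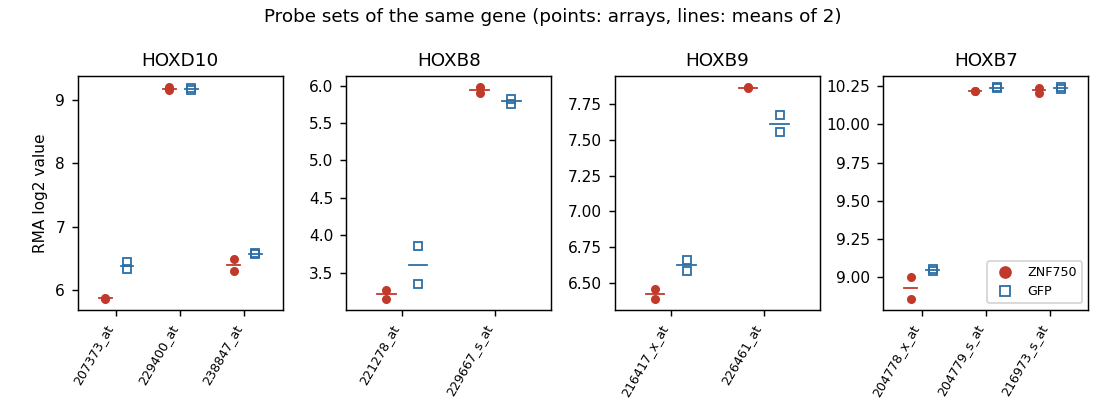
RMA log2 value (y axis) of each probe set (x axis) of HOXD10, HOXB8, HOXB9 and HOXB7 on the ZNF750 arrays (filled circles, left) and the GFP arrays (open squares, right), with lines at the group means (n = 2 arrays each). In HOXD10 only 207373_at is clear of the GFP values by a wide gap, in HOXB8 and HOXB9 the probe sets differ in direction, and in HOXB7 the 3 lie close to their GFP values.

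The upstream sequence of HOXD10 and of its cluster neighbour HOXD11 is shown because their probe sets differed in opposite directions, 207373_at of HOXD10 as the only call and HOXD11 as one of the positive differences described below. Each line gives the 250 bases before the gene's RefSeq start on GRCh38.p14, plus strand, for HOXD10 chr2:176116528-176116777 and for HOXD11 chr2:176107030-176107279. Capitals mark a match to a searched motif.
HOXD10: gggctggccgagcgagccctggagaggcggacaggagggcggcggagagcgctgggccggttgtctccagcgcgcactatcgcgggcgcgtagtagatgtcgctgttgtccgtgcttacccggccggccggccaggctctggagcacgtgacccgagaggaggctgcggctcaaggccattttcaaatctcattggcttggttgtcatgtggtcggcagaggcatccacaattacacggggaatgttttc
HOXD11: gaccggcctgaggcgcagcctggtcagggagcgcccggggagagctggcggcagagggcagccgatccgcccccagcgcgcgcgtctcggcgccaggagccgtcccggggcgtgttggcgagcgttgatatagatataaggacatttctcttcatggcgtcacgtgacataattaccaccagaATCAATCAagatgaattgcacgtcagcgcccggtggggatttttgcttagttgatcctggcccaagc

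RefSeq upstream windows were at hand for 11 of the 28 measured genes: HOXA2, HOXB1, HOXC4, HOXC5, HOXD1, HOXD4, HOXD8, HOXD10, HOXD11, HOXD12 and HOXD13, of which HOXC4 and HOXC5 share 1 window. Searched on both strands, the PBX-HOX motif TGATNNAT was found in 3 of the 11 (HOXA2, HOXB1 and HOXD11), against 6.47% of 35116 windows of the same length. In HOXD11 it lies 67 to 60 bases before the start, as the capitals show. The motif CCNNNAGGC, described for ZNF750 binding in keratinocytes, was found in 2 of the 11 (HOXD8 and HOXD12), against 23.7% of all windows. The HOXD10 window held neither. These are matches of letters, not binding sites. The median ratio of observed to expected CG dinucleotides was 0.888 in the HOX windows and 0.558 in all windows, at a median GC content of 57.2% and 58%.

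The remaining bright HOXB probe sets did not pass. HOXB7, which promotes growth in several carcinomas, had the brightest HOX probe sets. Its 204779_s_at read 10.22 and 10.22 in the ZNF750 arrays, against 10.24 and 10.24 in the GFP arrays, a difference of -0.025 ± 0.047. Its 216973_s_at read 10.21 and 10.24 in the ZNF750 arrays, against 10.24 and 10.23 in the GFP arrays, and overlapped (-0.013 ± 0.048). The intervals of both lay between ratios of 0.911 and 1.07. The dimmer 204778_x_at, at 9.00 and 8.85 in the ZNF750 arrays and 9.04 and 9.05 in the GFP arrays, differed by -0.12 ± 0.069.

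HOXB2 and HOXB3, hindbrain genes at the low-numbered end of the cluster, were also bright. HOXB2 read 8.87 and 8.93 in the ZNF750 arrays and 8.91 and 8.97 in the GFP arrays, which overlapped (-0.039 ± 0.062). HOXB3 228904_at read 9.20 and 9.14 in the ZNF750 arrays and 9.07 and 9.05 in the GFP arrays, a difference of 0.11 ± 0.058 whose groups did not overlap and which did not pass (limma adjusted p = 0.301). The dimmer HOXB3 208414_s_at read 5.89 and 5.61 in the ZNF750 arrays and 5.92 and 6.09 in the GFP arrays, a difference of -0.26 ± 0.13 of the opposite sign.

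HOXB5 and HOXB6, genes of the neck and upper trunk level, each had probe sets of both signs. HOXB5 read 7.02 and 7.06 with ZNF750 and 6.99 and 7.07 with GFP on 205600_x_at, and 7.71 and 7.84 with ZNF750 and 7.85 and 7.83 with GFP on 205601_s_at. Both HOXB5 probe sets overlapped between groups, with differences of 0.011 ± 0.083 and -0.061 ± 0.078. HOXB6 205366_s_at read 7.54 and 7.40 with ZNF750 and 7.58 and 7.42 with GFP, again overlapping, with a difference of -0.034 ± 0.092. The dim HOXB6 205365_at read 3.74 and 3.70 with ZNF750 and 3.65 and 3.45 with GFP (0.17 ± 0.12).

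HOXB9, which acts in the thoracic skeleton and the mammary gland, gave opposite signs on its probe sets. Its 226461_at read 7.87 and 7.86 in the ZNF750 arrays, against 7.67 and 7.55 in the GFP arrays, a difference of 0.25 ± 0.077. The groups did not overlap, and the probe set did not pass (limma adjusted p = 0.0811). It passed after cyclic loess (0.29, adjusted p = 0.0366) and after centring on brighter probe sets (0.32, adjusted p = 0.0182). The other, 216417_x_at, read 6.39 and 6.46 in the ZNF750 arrays, against 6.59 and 6.66 in the GFP arrays, a difference of -0.20 ± 0.092. An _x_at suffix marks probes that can bind further transcripts.

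The other HOXB probe sets were dimmer and none passed. HOXB8, a gene of myeloid progenitors and a target of miR-196, read 3.27 and 3.15 in the ZNF750 arrays and 3.86 and 3.35 in the GFP arrays on 221278_at, a difference of -0.40 ± 0.18. Its brighter 229667_s_at read 5.98 and 5.90 in the ZNF750 arrays and 5.82 and 5.76 in the GFP arrays, a difference of 0.15 ± 0.10. The groups overlapped on neither, and the signs were opposite. HOXB4, known for its part in blood stem cell renewal, read 6.59 and 6.59 in the ZNF750 arrays and 6.35 and 6.43 in the GFP arrays (0.19 ± 0.090, limma adjusted p = 0.227).

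The genes at the ends of the HOXB cluster had no probe set with a mean of 7 or more, and each had probe sets of both signs. HOXB1, a hindbrain gene, read 5.69 and 5.78 in the ZNF750 arrays and 5.76 and 5.88 in the GFP arrays on 208224_at (-0.083 ± 0.11). On 243811_at it read 4.24 and 4.45 in the ZNF750 arrays and 4.01 and 4.26 in the GFP arrays (0.21 ± 0.14). Both HOXB1 probe sets overlapped between groups. HOXB13 read 3.57 and 3.89 in the ZNF750 arrays and 3.77 and 3.82 in the GFP arrays on 209844_at, with overlap (-0.063 ± 0.14). On 230105_at it read 4.16 and 4.29 in the ZNF750 arrays and 4.07 and 4.06 in the GFP arrays, without overlap (0.17 ± 0.12).

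In HOXC, 3 of 9 probe sets had an unadjusted limma p under 0.05, all with ZNF750 higher and without overlap, and 0 passed. That is 33.3% of the cluster, against 26.2% of all probe sets at that threshold (12.4% with ZNF750 higher). HOXC6, expressed in several carcinomas, read 7.49 and 7.58 in the ZNF750 arrays, against 7.31 and 7.26 in the GFP arrays, a difference of 0.25 ± 0.080 (limma adjusted p = 0.0888). HOXC8, a gene of the thoracic skeleton, read 5.78 and 6.01 in the ZNF750 arrays, against 5.53 and 5.59 in the GFP arrays. Its difference of 0.33 ± 0.12 was the largest positive one among the members (limma adjusted p = 0.122). HOXC11 read 6.56 and 6.64 in the ZNF750 arrays, against 6.31 and 6.38 in the GFP arrays (0.25 ± 0.092, limma adjusted p = 0.13). Of these, HOXC6 passed after centring on brighter probe sets (0.32, adjusted p = 0.0273) and in the fit of gene means (adjusted p = 0.0431).

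The other HOXC members did not pass. HOXC4 read 7.53 and 7.73 in the ZNF750 arrays and 7.67 and 7.64 in the GFP arrays, which overlapped (-0.019 ± 0.089). HOXC9 read 7.33 and 7.06 in the ZNF750 arrays and 7.05 and 7.10 in the GFP arrays, which also overlapped (0.12 ± 0.10). HOXC13, a regulator of hair and nail keratins, differed by -0.10 ± 0.16, HOXC5 by 0.083 ± 0.11, HOXC10 by -0.20 ± 0.11 and HOXC12 by -0.19 ± 0.12. Both ZNF750 values lay below both GFP values for HOXC10 and for HOXC12, and the groups overlapped for HOXC5 and HOXC13.

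In HOXD, the probe set of HOXD11, which patterns the forelimb and the sacral region, read 7.96 and 7.94 in the ZNF750 arrays, against 7.69 and 7.73 in the GFP arrays. The groups did not overlap, and the difference of 0.24 ± 0.070 did not pass (limma adjusted p = 0.0748). It passed after cyclic loess (0.28, adjusted p = 0.0373), after centring on brighter probe sets (0.30, adjusted p = 0.0212) and in the fit of gene means (adjusted p = 0.0333). Its paralog HOXC11 differed by 0.25 in the same direction.

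HOXD9 205604_at read 7.10 and 7.29 in the ZNF750 arrays and 7.09 and 7.14 in the GFP arrays, and the groups overlapped (0.080 ± 0.093). Its dim 205605_at read 4.02 and 3.84 in the ZNF750 arrays and 4.04 and 4.15 in the GFP arrays (-0.16 ± 0.13). HOXD4, which acts at the hindbrain and neck level, read 5.38 and 5.50 in the ZNF750 arrays and 5.44 and 5.31 in the GFP arrays on 205522_at (0.067 ± 0.11). On 1552337_s_at it read 4.04 and 3.78 in the ZNF750 arrays and 4.16 and 4.13 in the GFP arrays (-0.24 ± 0.13). None of these passed.

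HOXD13, needed for the digits, had 3 probe sets, and the groups overlapped on each. Its 207398_at read 4.60 and 5.15 in the ZNF750 arrays and 5.02 and 5.52 in the GFP arrays, and its difference of -0.39 ± 0.22 had the widest interval of all members. Its 207397_s_at read 4.22 and 4.38 in the ZNF750 arrays and 4.37 and 4.39 in the GFP arrays (-0.081 ± 0.12). Its brightest, 236681_at, read 6.73 and 6.84 in the ZNF750 arrays and 6.75 and 6.78 in the GFP arrays (0.017 ± 0.088). HOXD1, HOXD8 and HOXD12 differed by between -0.081 and 0.23, and none passed. HOXA2 read 7.05 and 6.77 in the ZNF750 arrays and 6.94 and 6.67 in the GFP arrays, a difference of 0.11 ± 0.13 with overlap.

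Probe sets of 1 gene mostly differed in sign. Of the 13 HOX genes with more than 1 probe set, 11 had differences of both signs. Only 1 HOX probe set passed, so nearly all of these signs belong to differences that did not pass. The share among other genes is not given here, so the count is not a trait of the HOX genes. The exceptions were HOXB7, negative on 3 of 3, and HOXD1, positive on 2 of 2. By paralog number, the median difference was lowest for number 10 (-0.19 over 4 probe sets) and highest for number 11 (0.25 over 2 probe sets). The other numbers had medians between -0.13 and 0.17. By cluster, the medians were -0.025 for HOXB, 0.083 for HOXC and -0.079 for HOXD.

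Noncoding transcripts of the clusters gave 0 calls in 23 probe sets of 11 genes (1 at an unadjusted limma p under 0.05), against 11.5% of all probe sets. Of the 23, 13 had a mean below 5, a level at which 2.48% of all probe sets changed. HAGLR, antisense to the HOXD cluster, had the brightest of the 23, 228601_at. It read 8.10 and 8.15 in the ZNF750 arrays and 8.03 and 8.15 in the GFP arrays. The groups overlapped. HOTAIR, which is transcribed from the HOXC cluster and binds Polycomb proteins, read 2.47 and 2.43 in the ZNF750 arrays and 2.80 and 2.84 in the GFP arrays. That difference of -0.37 ± 0.10 did not pass (limma adjusted p = 0.0581) and lies near the lowest values of the table.

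Genes beside the clusters gave 10 calls. Of 36 probe sets of 15 genes, 7 rose and 3 fell, or 27.8%, against 11.5% of all probe sets (4.3% higher and 7.19% lower). Of the 36, 15 had a mean of at least 7, a level at which 28.5% of all probe sets changed, and 10 a mean below 5. The median was 0.072, against 0.026 for all probe sets. HIBADH, a mitochondrial enzyme of valine breakdown encoded beside HOXA, fell by 1.14 on 231955_s_at (SE 0.17) and by 0.67 on 224812_at (SE 0.081). Its remaining probe set, 234452_at, differed by -0.40 ± 0.13 and did not pass. The 224812_at values were 8.77 and 8.91 in the ZNF750 arrays, against 9.60 and 9.41 in the GFP arrays. On the opposite side of HOXA, SNX10, a sorting nexin of endosomes, rose by 0.53 ± 0.061. It read 9.14 and 9.12 in the ZNF750 arrays, against 8.63 and 8.57 in the GFP arrays. CBX5, which encodes heterochromatin protein HP1 alpha and lies beside HOXC, rose by 0.75 ± 0.14 on 226085_at and by 0.32 ± 0.083 on 212126_at. NFE2, a blood cell factor, rose by 0.55 ± 0.13 from a dim level, with a mean of 3.88. None of the 4 CBX5 probe sets beyond these passed, and their differences lay between -0.28 and 0.38. With the replicate number as a block, 2 neighbours rose and 3 fell, and with any 1 array left out 0 passed.

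HOX cofactors gave 1 call in 20 probe sets of 8 genes, or 5%, against 11.5% of all probe sets. Of the 20, 5 had a mean of at least 7 and 5 a mean below 5. PBX3, a TALE homeodomain partner that raises the DNA affinity of HOX proteins, read 8.00 and 7.85 in the ZNF750 arrays, against 8.68 and 8.45 in the GFP arrays. The groups did not overlap, and the fall of 0.64 (SE 0.097) passed (limma adjusted p = 0.00739). PBX3 had 1 probe set, and it did not pass with any 1 of the 4 arrays left out, which removed most calls in the whole table too. MEIS2 differed by -0.12 ± 0.068 and the MEIS1 probe sets by -0.16 ± 0.12 and -0.12 ± 0.13, and none passed. PBX2, PBX4, MEIS3, PKNOX1 and PKNOX2 gave 0 calls by limma, with differences between -0.31 and 0.30, and 2 PBX2 probe sets had an unadjusted p under 0.05.

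Of 58 probe sets of 20 genes for chromatin control of the clusters, 2 rose and 5 fell. That is 12.1%, against 11.5% of all probe sets. Of the 58, 32 had a mean of at least 7, a level at which 28.5% of all probe sets changed. EED, a core subunit of Polycomb repressive complex PRC2, fell on both of its probe sets. Its bright 209572_s_at read 10.68 and 10.63 in the ZNF750 arrays, against 11.07 and 11.00 in the GFP arrays, a difference of -0.38 ± 0.048 (limma adjusted p = 0.00418). Its 210656_at gave -0.97 ± 0.23. EZH2, the PRC2 methyltransferase, differed by 0.043 ± 0.10 and did not pass. PHC2, a subunit of the PRC1 complex, fell by 0.78 on the dim 1557852_at (SE 0.11), and its bright 200919_at gave -0.16 ± 0.059. Neither 200919_at nor the dim 238131_at, at -0.12 ± 0.12, passed. KDM6A, which removes the PRC2 mark, fell by 0.45 on 203992_s_at (SE 0.11), while its other probe sets gave between -0.24 and 0.27. KMT2A, the trithorax-type methyltransferase, had 11 probe sets with differences between -0.23 and 0.21 and 0 calls by limma (1 at an unadjusted p under 0.05). DOT1L rose by 0.29 ± 0.075 on 231297_at, a call that ended with the replicate block. Its slightly brighter 226201_at gave -0.0099 ± 0.087 and its dim 214865_at 0.029 ± 0.14. Both overlapped between groups and did not pass. With any 1 array left out, at most 1 chromatin control probe set passed.

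Of 30 probe sets for signals that act on HOX genes in embryos, retinoid enzymes, retinoid receptors and CDX factors, 1 rose and 0 fell. That is 3.33%, against 11.5% of all probe sets. Of the 30, 14 had a mean below 5, a level at which 2.48% of all probe sets changed. At an unadjusted limma p under 0.05 there were 2 with a positive difference, ALDH1A3 and CDX1, and 1 with a negative one, RXRA. The 1 was ALDH1A3, an enzyme that makes retinoic acid. It read 12.55 and 12.52 in the ZNF750 arrays, against 12.13 and 12.17 in the GFP arrays, a difference of 0.39 ± 0.037 (limma adjusted p = 0.00158). Its dim 1558649_at gave -0.17 ± 0.14, with overlap, and did not pass. RARA, RARB, RARG, RXRA and RXRB gave 0 calls by limma (1 at an unadjusted p under 0.05), with differences between -0.18 and 0.22.

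**Figure D5:**
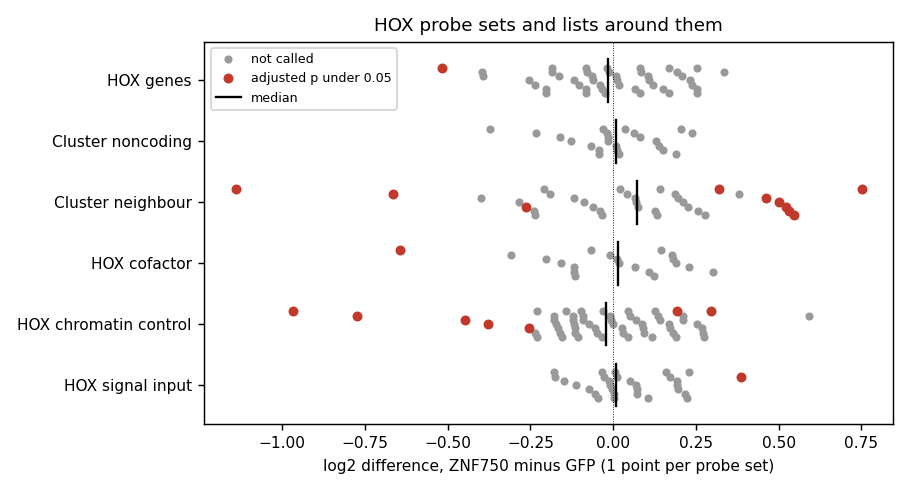
Log2 difference, ZNF750 minus GFP (x axis), of each probe set of the HOX genes and of 5 lists around them (y axis); coloured points have a limma adjusted p under 0.05 and black lines are medians. The HOX and noncoding rows hold 1 and 0 coloured points, and the neighbour row holds 10 on both sides of 0.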

How the data were processed

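RNA of 4 samples was hybridised to 1-colour Affymetrix HG-U133 Plus 2.0 arrays. The authors deposited RMA log2 values for each probe set, per the submitters' processing notes, which name RMA. Its version, not given in the sources used here, is unknown, and as a method RMA includes background correction, quantile normalization and probe summary. From these values limma 3.58.1 in R 4.3.3 fitted ZNF750 against GFP over 54613 probe sets, with 62 controls left out and eBayes with an intensity trend. P-values were adjusted by Benjamini-Hochberg over all probe sets, and no p was adjusted over a list alone. With 2 arrays per group, the number of arrays limits the precision, and the fit has 2 residual degrees of freedom before the variances are shared across probe sets. Of the probe sets, 41091 carried 1 symbol, 1801 several and 11721 none, and all 44 HOX probe sets matched RefSeq by Entrez number with 0 symbols changed. No scan date or other batch was used here.

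The members and gene lists were chosen with earlier results of these data known. Values were given in full for HOX probe sets that passed or had a mean log2 value of at least 7, and for all probe sets of a HOX gene whose probe sets differed in call or sign. From each list the text names up to 4 genes with the largest differences among the probe sets that passed, and PBX3, MEIS1, MEIS2 and KMT2A whatever their result. HOX probe sets with an unadjusted p under 0.05, HOXB4, EZH2, HAGLR, HOTAIR, CDX1 and RXRA were named after their values were seen. The differences of the epithelial markers were likewise given after they were seen. The fit was tested on simulated data with independent noise, which does not check it for arrays whose spread is technical. Alternatives were no intensity trend, other probe set choices, cyclic loess, centring, the replicate block, stricter thresholds and each array left out.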

Additional observations from a re-analysis of the deposited data

How the results depend on the processing

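With 1 array left out at a time, few calls were left in the whole table: between 8 and 267 higher and between 1 and 661 lower, against 2348 and 3927 with all arrays. The lower ends came without either GFP array (without GFP replicate 1, 10 were higher and 1 lower; without GFP replicate 2, 8 were higher and 1 lower). Without ZNF750 replicate 1 there were 267 higher and 661 lower, and without ZNF750 replicate 2 there were 236 and 416. The lone array of a group was then assumed to vary like the other group. The calls among HOX and HOXD probe sets lower, cofactors lower, chromatin control higher and neighbours in both directions numbered between 0 and 0, and those of chromatin control lower and signal input higher between 0 and 1. The HOX median lay between -0.027 and 0.0014.

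Without the intensity trend there were 520 higher and 754 lower calls in all, and 0 HOX, 0 HOXD and 0 cofactor probe sets were lower. Chromatin control then had 0 higher and 1 lower, signal input 0 higher and neighbours 1 higher. With the brightest probe set per gene there were 1541 higher and 2013 lower in all, 0 lower in HOX and HOXD, 3 lower in chromatin control and 4 higher among neighbours, and the HOX median was 0.073. With gene means there were 1043 higher and 1600 lower in all, 2 HOX genes higher (1 HOXC, 1 HOXD), chromatin control had 0 higher and 3 lower, signal input 0 higher, noncoding 1 lower, and neighbours 2 higher and 1 lower. The gene mean of HOXD10, at -0.23, had the opposite sign to 229400_at. Leaving out _x_at and _s_at probe sets gave 1230 higher and 1845 lower in all, 1 higher and 2 lower in chromatin control, and 4 higher and 1 lower among neighbours. After cyclic loess 2 HOX probe sets were higher (1 HOXB, 1 HOXD), 5 of chromatin control were higher and 1 noncoding was lower. After centring 4712 were higher in all, 3 HOX (1 each of HOXB, HOXC and HOXD) and 7 of chromatin control. At an adjusted p under 0.01 there were 704 higher and 1474 lower in all, 0 lower in HOX and HOXD, 0 higher and 2 lower in chromatin control and 2 higher among neighbours. With an absolute difference of at least 0.5 there were 961 higher and 1457 lower in all, chromatin control had 0 higher and 2 lower, and signal input 0 higher. The cause of these shifts was not tested.

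With the replicate number as a block, 0 HOX probe sets were higher and 1 lower, as without it, and 0 of chromatin control and 2 neighbours were higher. The deviations of same-numbered arrays correlated at 0.134 over probe sets. The labels give only the number, so with 2 pairs it is not known whether same-numbered arrays share more than that. Of the 44 HOX probe sets, 31 were scored with another sign under at least 1 of the 14 alternatives. Under the brightest probe set and gene mean choices, each probe set was scored by the value of its gene. The 31 therefore include probe sets that only differ in sign from that gene value. The called HOXD10 probe set is among them, although its own difference stayed negative throughout. How many probe sets changed sign on their own values was not counted. Thresholds, the trend and the block cannot change a sign.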
